A study of Mus musculus with 6 samples.

Results

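The mitochondrial ribosomal RNAs mt-Rnr1 and mt-Rnr2 and 8 nuclear genes of mitochondrial DNA (mtDNA) expression were examined, 10 of the 19386 genes listed in the authors' deposited table of expression. The nuclear genes were Polrmt, Tfam, Tfb1m, Tfb2m, Lrpprc, Slirp, Polg and Ssbp1, and all 10 were found by their symbols. They were chosen from the room air and cigarette smoke means of that table, with the low rRNA levels after smoke already known, to ask whether the nuclear factors moved with the 2 rRNAs. Their expression values, and the authors' p-values printed with them, are therefore a description and support no test here.

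The series measured RNA in bone marrow-derived macrophages, cells grown from mouse marrow in medium with supernatant of L929 cells, a fibroblast line that secretes the macrophage growth factor CSF1. All 6 libraries came from wild-type C57BL/6 mice, whose marrow was depleted of erythrocytes, cultured and harvested at day 11. In 3 libraries the mice had breathed room air, and in the other 3 they had been exposed to cigarette smoke. The exposure was of the animal, and the labels give neither its length nor the animals' age.

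Mitochondria transcribe their own small circular genome with a dedicated RNA polymerase, POLRMT, which starts at the promoters with the DNA-packaging protein TFAM and the factor TFB2M. The heavy strand is copied into long precursors that hold both rRNAs near their start, followed by most of the messenger RNAs, and transfer RNAs between them mark the places where the precursor is cut. LRPPRC and SLIRP form a complex that stabilises the messenger RNAs, while the rRNAs are packed into the mitochondrial ribosome, which makes core subunits of the respiratory chain. Macrophages change their use of the respiratory chain when they are activated.

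Of the general markers examined, the 7 macrophage genes summed to 49663 normalized counts in room air and 50909 after smoke in the authors' deposited table. Lyz2 weighed most in this sum, at 23168 and 24772. By log2 fold change 3 of the 7 were positive and 4 negative, from -0.26 (Adgre1, 4185 and 3504) to 0.51 (Fcgr1, 537 and 762). None of the 7 was called, beside 7.69% of all genes tested. No erythroid marker of 3 was listed, and the listed markers of neutrophils (1 of 5), B cells (2 of 3) and dendritic cells (2 of 3) summed to at most 1.02. Of 3 T cell markers only Cd4 was listed, at 29.0 and 22.4 normalized counts, with Cd3e and Cd3d not listed. Stromal markers, all 3 of them listed, summed to 41.3 in room air and 8.78 after smoke, with Col1a1 at 15.3 and 2.38. None of the 3 stromal markers was called, and Pdgfrb stood at 3.40 and 3.04. Their summed level was lower after smoke, as were the rRNAs, and its part in the result was not tested. The table gives group means only, so depth per library, the spread between libraries and single expression values are unknown. In such bulk samples fewer cells of a type and less RNA per cell cannot be told apart.

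mt-Rnr1 encodes the 12S rRNA of the small mitochondrial ribosomal subunit (ENSMUSG00000064337.1, GRCm38 chrM:70-1024, plus strand, 955 nucleotides, a single non-coding exon). mt-Rnr2 encodes the 16S rRNA of the large subunit (ENSMUSG00000064339.1, chrM:1094-2675, plus strand, 1582 nucleotides, a single exon). Between them lies the valine tRNA gene mt-Tv (chrM:1025-1093), and directly after mt-Rnr2 lies mt-Tl1 (chrM:2676-2750), a leucine tRNA gene. The first sequence below is the 3′ end of mt-Rnr1 (chrM:965-1024, plus strand), shown because TFB1M dimethylates adjacent adenines in this conserved stem-loop. Its capitals mark the loop, at positions 1004 to 1007, of a hairpin in which the 9 bases on each side of the loop can pair, 1 of them as a G-U pair. The second is all of mt-Tl1, shown because it borders the gene with the highest normalized count in room air and holds the known binding site of the termination factor MTERF1.
mt-Rnr1 3′ end: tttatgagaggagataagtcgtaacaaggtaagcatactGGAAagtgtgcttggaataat
mt-Tl1: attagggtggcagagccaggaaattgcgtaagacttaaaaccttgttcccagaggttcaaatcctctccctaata

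Both rRNAs were lower after smoke, and by nearly the same factor. mt-Rnr2 had a mean of 32957 normalized counts in room air and 10126 after smoke in the authors' deposited table, a 3.25-fold lower level. mt-Rnr1, whose stem-loop is shown above, had means of 18197 and 5757, a 3.16-fold lower level. In rank among the 19386 listed genes, mt-Rnr2 went from 1 to 22 and mt-Rnr1 from 8 to 55.

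On the log2 scale, the authors' deposited table gave a change of smoke over room air of -1.70 (SE 0.40) for mt-Rnr2 and of -1.66 (SE 0.40) for mt-Rnr1. The means are of 3 libraries per group, but which libraries set the SE is not given in the sources used here, since another column of that table is headed as a mean over 24 samples. The adjusted p-values of DESeq2 in that table were 0.00156 for mt-Rnr2 and 0.00219 for mt-Rnr1. Of the 10 genes these 2 had an adjusted p under 0.05, both lower, beside 7.69% of the 12082 genes with an adjusted p that passed in either direction and 3.53% that passed as lower. Nothing is read from that count, because the same contrast chose the genes. Of the 842 genes that averaged 1000 normalized counts or more over both groups, 3 had a log2 fold change at or below that of mt-Rnr1, the 2 rRNAs included.

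**Figure D1:**
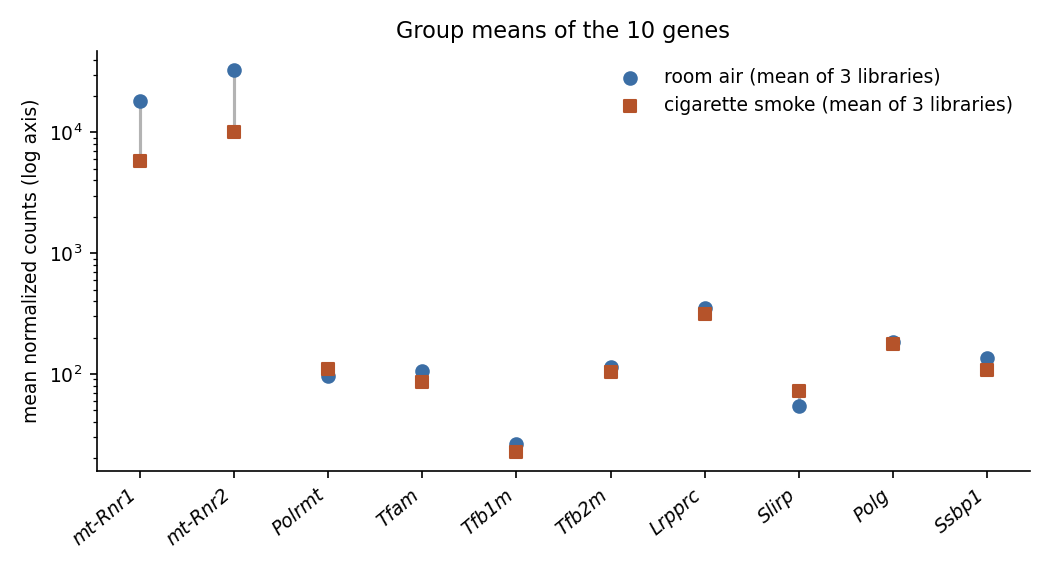
Mean normalized counts of the 10 genes on a log axis in room air (circles) and after cigarette smoke (squares), each the authors' mean of 3 libraries with no error given. Long grey lines join the 2 means of mt-Rnr1 and mt-Rnr2, which fell from 18197 to 5757 and from 32957 to 10126, and the symbols of the 8 nuclear genes lie close together.

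The proportion of the 2 rRNAs to each other was nearly the same in both groups. The ratio of mt-Rnr2 to mt-Rnr1 was 1.81 in room air and 1.76 after smoke, or 1.09 and 1.06 per kilobase of annotated length. Together the 2 rRNAs made up 1.14% of the summed normalized counts of all listed genes in room air and 0.361% after smoke. Over the 9 mtDNA-encoded messenger RNAs that averaged 50 normalized counts or more, that share was 1.75% and 1.47%. The ratio of rRNA to these messenger RNAs was thus 0.651 in room air and 0.246 after smoke. These ratios have no error, since the values of single libraries are not given.

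None of the 9 mtDNA-encoded messenger RNAs was called, beside the 3.53% of all genes tested that were called lower. Of the 9, 8 had a negative and 1 a positive log2 fold change by the authors' deposited table. Their median was -0.37 against -0.0029 over all genes tested. The 4 messenger RNAs left out for low means were all higher after smoke and are given below. Among the 9, 4 had an unadjusted DESeq2 p under 0.05. The share of all genes under it was not computed, so nothing is read from that count. Lower bounds of the 95% intervals of the 9, made from the deposited SEs, reached -1.05, and the highest bound of the 2 rRNAs was -0.88. The fold changes of the rRNAs and of the messenger RNAs come from the same libraries, and their difference was not tested.

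Along the heavy strand, the genes after mt-Rnr2 were not called. mt-Tl1, the leucine tRNA printed above, had means of 132 and 136 normalized counts and a log2 fold change of 0.06 (SE 0.25) in the authors' deposited table. mt-Nd1, the complex I subunit gene that follows it (chrM:2751-3707), had means of 9145 and 8195 and a log2 fold change of -0.16 (SE 0.17) in the authors' deposited table. Neither passed the test, with DESeq2 adjusted p-values of 0.923 for mt-Tl1 and 0.627 for mt-Nd1 in the authors' deposited table. The tRNA genes mt-Tf (chrM:1-68), before mt-Rnr1, and mt-Tv, between the rRNAs, were too low for an adjusted p. mt-Tf had means of 1.73 and 0.195 normalized counts and mt-Tv of 1.78 and 1.79 in the authors' deposited table, so at these levels neither shows a change or its absence. In all, 15 of the 22 mitochondrial tRNA genes were listed, 3 had an adjusted p (mt-Tl1, mt-Tw and mt-Ti), and none was called. The means of mt-Tw and mt-Ti were 25.1 and 20.2, and 18.2 and 17.3 normalized counts in the authors' deposited table.

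Among the messenger RNAs the lowest fold change was that of mt-Nd5, a complex I subunit gene far from the rRNAs. By the authors' deposited table its means were 9566 and 6497 normalized counts and the log2 fold change -0.56 (SE 0.21) and a DESeq2 adjusted p of 0.0683. mt-Nd6, the messenger RNA gene on the opposite, light-strand transcript, had means of 261 and 175 and a log2 fold change of -0.54 (SE 0.26) in the authors' deposited table. The complex I genes mt-Nd2, mt-Nd4 and mt-Nd4l had log2 fold changes of -0.41, -0.37 and -0.48 in the authors' deposited table. mt-Cytb, of complex III, had a log2 fold change of -0.24, and mt-Co1, the catalytic subunit of cytochrome oxidase, one of -0.19 in the authors' deposited table. mt-Nd3 was the only one of the 9 above 0, at 0.08 in the authors' deposited table.

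Per kilobase, the order of the rRNAs and mt-Co1 differed between the groups. In room air mt-Rnr2 stood at 20833, mt-Rnr1 at 19054 and mt-Co1 at 18426 normalized counts per kilobase. After smoke mt-Co1, at 16194, stood above mt-Rnr2 at 6401 and mt-Rnr1 at 6029, and mt-Nd1, mt-Nd4 and mt-Cytb also stood above both, at 8563, 7299 and 6863. Which neighbours in this order differ beyond their spread cannot be said from group means.

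**Figure D2:**
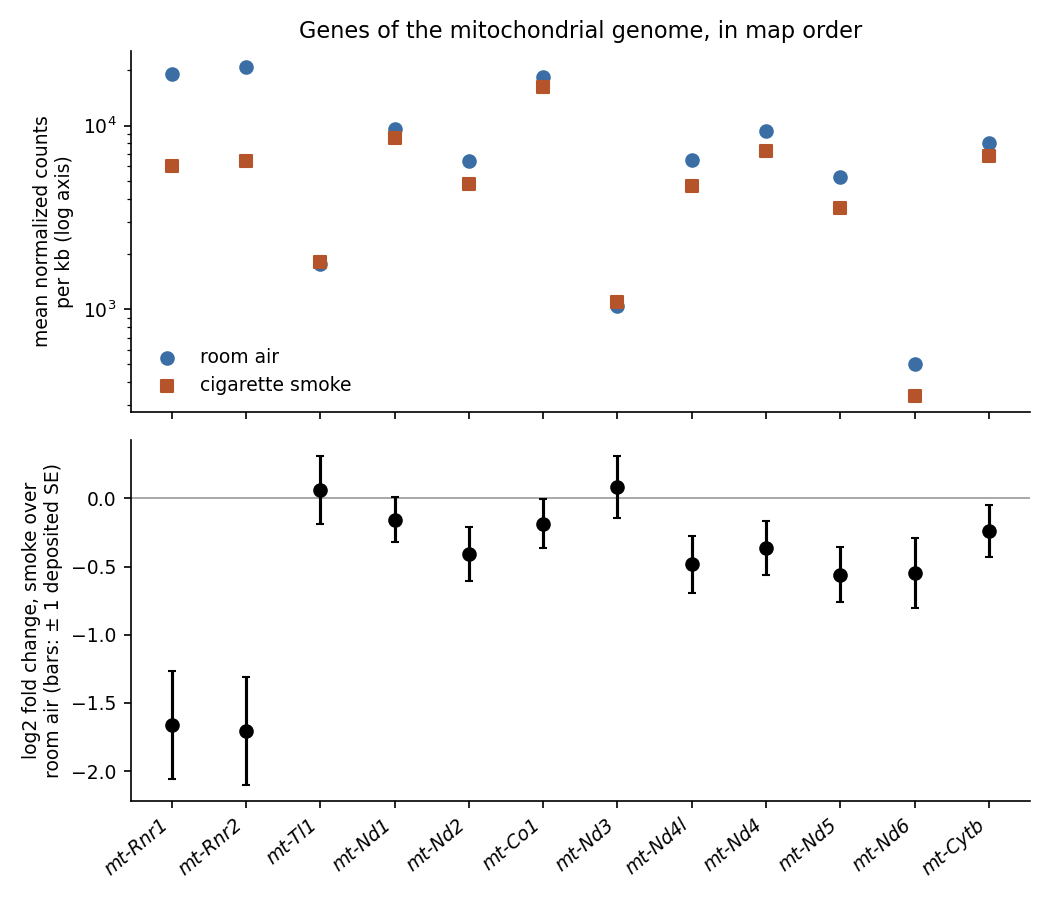
Genes of the mitochondrial genome that averaged 50 normalized counts or more, in map order. The upper panel gives mean normalized counts per kilobase on a log axis in room air (circles) and after smoke (squares), and the lower panel the log2 fold change of the authors' deposited table with bars of ± 1 SE. The 2 rRNAs lie near -1.7 and the other genes between -0.56 and 0.08.

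Near-identical copies of mtDNA in nuclear chromosomes can take or split reads, so some of these values are uncertain. Copies were searched for in annotated transcripts only, so a share of 0% leaves copies elsewhere in the nuclear genome unexamined. Of the 50-base windows of mt-Rnr1, 0 of 906 occurred exactly in a GENCODE transcript outside mtDNA, and of those of mt-Rnr2 16 of 1533, or 1.04%, in the pseudogene Gm20594. The shares were 0% for mt-Nd1, mt-Nd6 and mt-Cytb, 8.19% for mt-Nd2 and 7.61% for mt-Nd5. They were 51.1% for mt-Co1, 62.2% for mt-Nd4, 98.0% for mt-Nd3 and 98.8% for mt-Nd4l, whose counts are therefore uncertain. The 4 messenger RNAs with means of at most 36.8 normalized counts were mt-Co2, mt-Atp6, mt-Co3 and mt-Atp8, and the first 3 shared 99.5% to 100% of their windows with such copies, while mt-Atp8 shared 0%. All 4 had higher means after smoke, and their log2 fold changes were 0.68, 0.78, 1.09 and 1.16 in the authors' deposited table. None was called, and mt-Atp8, at 4.29 and 9.75 normalized counts, had no adjusted p. Over the 12 mtDNA-encoded messenger RNAs with an adjusted p, 8 were negative and 4 positive, with a median of -0.21. Over the 5 messenger RNAs with less than 10% of windows shared, a set chosen after the data were seen, the ratio of rRNA to messenger RNA was 1.47 in room air and 0.573 after smoke.

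Of the 8 nuclear genes none was called, beside 7.69% of all genes tested, and nothing is read from that count. Their means after smoke differed from room air by -21.0% to 34.8%, 6 lower and 2 higher, in the authors' deposited table. The median log2 fold change of the 8 was -0.14, against -0.0029 over all genes tested, and their DESeq2 adjusted p-values ran from 0.437 to 0.863. The lowest bound of any of their 95% intervals was -0.92, that of Ssbp1. It lies above the estimates of both rRNAs but overlaps the interval of mt-Rnr1, which reached up to -0.88. The lowest unadjusted p among the 8 was 0.169, that of Slirp.

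**Figure D3:**
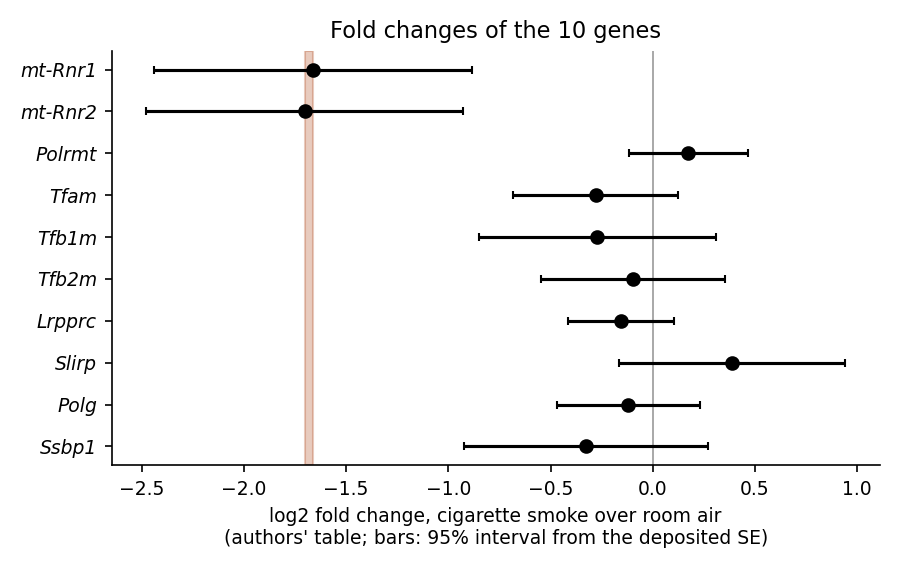
Log2 fold changes of smoke over room air for the 10 genes, as deposited, with bars for the 95% interval made from the deposited SE. The shaded band spans the estimates of the 2 rRNAs, -1.70 to -1.66, and the intervals of the 8 nuclear genes all lie to its right, the lowest bound being -0.92 (Ssbp1), which overlaps the upper end of the mt-Rnr1 interval at -0.88.

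Among the factors that start transcription, Polrmt, the polymerase (chr10:79736123-79746581, minus strand), averaged 96.6 normalized counts in room air and 109 after smoke in the authors' deposited table. Its log2 fold change there was 0.17 (SE 0.15). Tfam, which bends promoter DNA and also packages the whole genome (chr10:71225464-71238280, minus strand), had means of 106 and 86.4 and a log2 fold change of -0.28 (SE 0.21) in the authors' deposited table. Tfb2m, which opens the promoter (chr1:179528055-179546267, minus strand), had means of 114 and 105 and a log2 fold change of -0.10 (SE 0.23) in the authors' deposited table. Polrmt thus stood slightly higher and the others slightly lower, each within 2 SEs of 0. Tfb1m, the methyltransferase that acts on the hairpin printed above (chr17:3519256-3557781, minus strand), was the least abundant, at 26.3 and 22.6, its log2 fold change being -0.27 (SE 0.30) in the authors' deposited table.

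Lrpprc and Slirp, the pair that binds mitochondrial messenger RNA, differed in the sign of their fold change. Lrpprc (chr17:84705247-84790789, minus strand) had means of 354 and 315 normalized counts and a log2 fold change of -0.16 (SE 0.13) in the authors' deposited table. Slirp (chr12:87443896-87452206, plus strand) had means of 54.0 and 72.8 and a log2 fold change of 0.39 (SE 0.28) in the authors' deposited table. Per kilobase of the longest annotated transcript, Lrpprc was the highest of the 8 in both groups, at 80.7 and 71.8, while Slirp stood at 20.0 and 27.0 normalized counts. This order rests on that choice of transcript, of 4393 nucleotides for Lrpprc, 2701 for Slirp and 4398 for Ssbp1. Which transcripts the cells used was not examined.

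The replication genes among the 8 were Polg and Ssbp1. Polg, the catalytic subunit of the mtDNA polymerase (chr7:79446231-79466362, minus strand), had means of 185 and 176 normalized counts and a log2 fold change of -0.12 (SE 0.18) in the authors' deposited table. Ssbp1, which coats single-stranded mtDNA (chr6:40471352-40484700, plus strand), had means of 136 and 107 and a log2 fold change of -0.33 (SE 0.30) in the authors' deposited table. Exons of Tfb1m, Slirp and Polg overlap genes on the opposite strand (Tiam2, Alkbh1 and Snw1, and Fanci). The library kit keeps strand, but whether counting used it is not given in the sources used here, so these 3 counts are uncertain.

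Many nuclear genes of mitochondria share promoter motifs for the activators NRF1 and GABP (an ETS factor). The promoters of Polrmt and Tfam are printed as examples, since these genes act in starting mitochondrial transcription. Their means after smoke differed from room air by 13.3% for Polrmt and -18.8% for Tfam, and neither was called. Each printed promoter runs from 250 bases before to 50 after the annotated start (RefSeq, GRCm38.p6, on the gene's strand). Capitals mark CCGGAAG (GABP) or GCGCATGC (NRF1) or their reverse complements, CTTCCGG and GCATGCGC.
Polrmt (chr10:79746532-79746831, minus strand): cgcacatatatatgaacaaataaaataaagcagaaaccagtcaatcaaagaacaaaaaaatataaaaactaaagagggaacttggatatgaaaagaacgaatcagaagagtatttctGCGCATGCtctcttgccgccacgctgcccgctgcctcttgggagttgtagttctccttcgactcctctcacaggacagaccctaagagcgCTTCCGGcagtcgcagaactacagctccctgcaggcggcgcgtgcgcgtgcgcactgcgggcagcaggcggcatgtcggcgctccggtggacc
Tfam (chr10:71237995-71238294, minus strand): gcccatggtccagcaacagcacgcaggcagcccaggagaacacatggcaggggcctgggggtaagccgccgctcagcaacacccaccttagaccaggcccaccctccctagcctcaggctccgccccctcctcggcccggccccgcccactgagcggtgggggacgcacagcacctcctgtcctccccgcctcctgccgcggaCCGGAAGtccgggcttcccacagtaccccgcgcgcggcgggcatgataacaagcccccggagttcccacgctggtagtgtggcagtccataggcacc
All 8 nuclear genes had a promoter in the RefSeq table. The GABP letters were in 5 of the 8 (Polrmt, Tfam, Slirp, Polg and Ssbp1) and the NRF1 letters in 2 (Polrmt and Tfb2m), and 6 held either. Of all 32851 promoters in that table, 8.86% held the GABP letters and 2.71% the NRF1 letters. These are matches of letters, not sites shown to be used.

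The genes of these activators were not called. Nrf1 had means of 130 and 148 normalized counts and a log2 fold change of 0.17 (SE 0.16) in the authors' deposited table. Gabpa, the DNA-binding subunit of GABP, had means of 345 and 279 and a log2 fold change of -0.30 (SE 0.19) in the authors' deposited table. Of the partner subunits, Gabpb1 had means of 97.9 and 105, and Gabpb2 had means of 515 and 359, a log2 fold change of -0.51 (SE 0.19) and a DESeq2 adjusted p of 0.0696, as the authors' deposited table gives them. Myc, a growth regulator in the same list, had means of 38.5 and 80.8, a log2 fold change of 1.03 (SE 0.37) and a DESeq2 adjusted p of 0.0579, as the authors' deposited table gives them. Of the 11 regulators of mitochondrial genes with an adjusted p, 1 was called, higher, beside 4.15% of all genes. It was Esrra, an orphan nuclear receptor that activates oxidative genes, with means of 110 and 158, a log2 fold change of 0.54 (SE 0.15) and a DESeq2 adjusted p of 0.0109, as the authors' deposited table gives them. The coactivator Ppargc1a was at 0.522 in room air and 0 after smoke.

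In the wider machinery the calls are to be read beside the 7.69% of all genes tested that were called, 4.15% as higher and 3.53% as lower. None of the 7 transcription genes with an adjusted p was called, and their log2 fold changes had a median of -0.08 by the authors' deposited table. Of 18 genes for mtDNA replication and maintenance 1 was called, lower, and the median was -0.13. That gene was Slc25a36, a pyrimidine nucleotide carrier of the inner membrane, with means of 558 and 400 normalized counts, a log2 fold change of -0.48 (SE 0.12) and a DESeq2 adjusted p of 0.00416, as the authors' deposited table gives them. Of 20 genes for mitochondrial RNA processing and stability 1 was called, higher, and the median was 0.03. It was Tbrg4 (FASTKD4), a protein that regulates mitochondrial messenger RNAs, with means of 127 and 182, a log2 fold change of 0.53 (SE 0.13) and a DESeq2 adjusted p of 0.00432, as the authors' deposited table gives them.

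Among the genes that modify rRNA or assemble the mitochondrial ribosome, 23 had an adjusted p, none was called and the median was 0.07. The group of nucleoid partners and protein quality control had 9 genes, of which 2 were called, both higher, with a median of 0.29. They were the prohibitins, which form a ring-shaped scaffold in the inner membrane. Phb had means of 236 and 333 normalized counts, a log2 fold change of 0.49 (SE 0.10) and a DESeq2 adjusted p of 0.000388, as the authors' deposited table gives them. Phb2 had means of 302 and 422, a log2 fold change of 0.50 (SE 0.09) and a DESeq2 adjusted p of 4.88e-05, as the authors' deposited table gives them. The called genes in these lists thus included 1 that fell and 4 that rose, and all 5 changed by less than the 2 rRNAs.

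The genes whose fold change was nearest to the rRNAs, among those that averaged 1000 normalized counts or more, were Gm42418, Malat1, Fgd4, Cd36 and Lnpep. This likeness rests on 2 group means. Gm42418 (chr17:39846958-39848788), listed under the older name RP23-81C12.3, is a non-coding gene that lies on sequence of the cytosolic ribosomal RNA repeat. Its means were 4400 and 1332 normalized counts, its log2 fold change -1.72 (SE 0.66), with a DESeq2 adjusted p of 0.0828, as the authors' deposited table gives them. Malat1, a nuclear long non-coding RNA, had means of 11351 and 4603, a log2 fold change of -1.30 (SE 0.27) and a DESeq2 adjusted p of 0.000428, as the authors' deposited table gives them. The next 3 genes were protein-coding and farther away. The log2 fold changes of Fgd4, Cd36 and Lnpep were -0.92, -0.85 and -0.79 in the authors' deposited table, and only Lnpep passed the test, with a DESeq2 adjusted p of 3.78e-05.

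Of nuclear RNAs without a poly(A) tail, 7 of 11 looked for were listed, and Rmrp and Rpph1 were the only 2 with an adjusted p. Rmrp, the RNA of RNase MRP, had means of 196 and 59.7 normalized counts, a log2 fold change of -1.73 (SE 0.65) and a DESeq2 adjusted p of 0.0727, as the authors' deposited table gives them. A second, overlapping entry of Rmrp there had nearly the same values, with a DESeq2 adjusted p of 0.0728. Rpph1, the RNA of RNase P, had means of 233 and 52.0, a log2 fold change of -2.17 (SE 0.83) and a DESeq2 adjusted p of 0.0796, as the authors' deposited table gives them. Neither passed the test. The other 5 had means of at most 6.87, and among them Terc, the telomerase RNA, went the other way, at 0.258 and 0.817 in the authors' deposited table. The labels name total RNA and a directional kit, and say neither whether poly(A) RNA was selected nor whether rRNA was depleted. The part of these RNAs, or of RNA selection, in the rRNA result was not tested.

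Fold changes in the authors' deposited table follow the GC content and length of transcripts, so the 10 genes were also read after this trend was removed. mt-Rnr1 then had a log2 fold change of -1.58 and mt-Rnr2 of -1.56, given as values only, since the same contrast chose them. Among the nuclear genes Polrmt went from 0.17 to -0.02, a change of sign, and the 8 ranged from -0.21 to 0.45. With p-values recomputed from the deposited SEs, 1.28% of 12071 genes had an adjusted p under 0.05. Gm42418, Rmrp and Rpph1 moved away from 0, to -2.08, -2.29 and -2.78, while Malat1 went to -0.99. Malat1 kept an adjusted p under 0.05 (0.0305), and that of Gm42418 was 0.0838. Lnpep lost its call, at -0.34 with an adjusted p of 0.288, and Fgd4 and Cd36 went to -0.46 and -0.63. Rmrp then had an adjusted p of 0.0374 and Rpph1 of 0.0559. Of the 5 called genes of the other lists, Phb2 had an adjusted p under 0.05 after removal (0.33, adjusted p of 0.042). The other 4 did not, at -0.20 for Slc25a36, 0.28 for Tbrg4, 0.23 for Phb and 0.44 for Esrra.

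**Figure D4:**
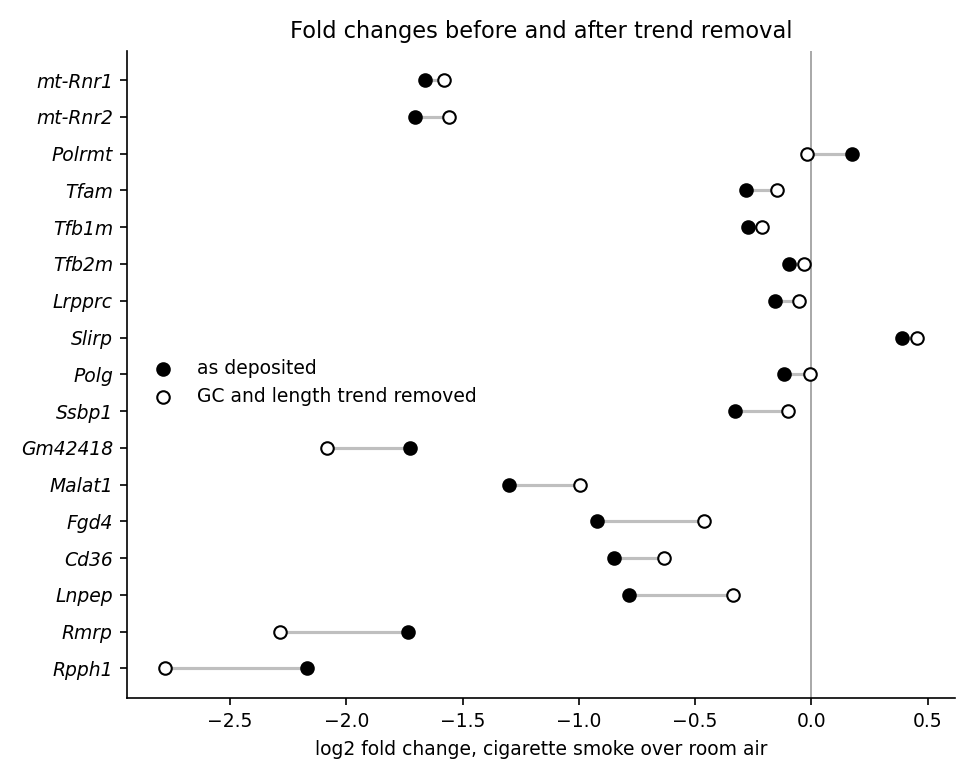
Log2 fold changes of smoke over room air as deposited (filled) and after the trend with GC content and length was removed (open), for the 10 genes, the 5 genes nearest to the rRNAs and 2 nuclear non-polyadenylated RNAs. The rRNAs moved by about as much as the nuclear genes, to -1.58 and -1.56, and Polrmt crossed 0.

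Splicing was read out separately from the same libraries, and the choice of the genes did not use it. In the table of splicing events, which gives a percentage for each library, 3 of 10376 events lay in the 10 genes, and none on mtDNA. None of the 3 passed limma's test, and neither did any other event at an adjusted p of 0.05 (0% called), although 1125 events, or 10.8%, had an unadjusted p under 0.05. The authors' own corrected p-values in that deposited table called 0 events as well, with 431 under 0.05 before correction. The limma count depended on the events kept. Among the 5933 with a value in all 6 libraries, fitted alone, 23 passed, with 0 in the 10 genes.

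The event with the widest difference was an intron of Slirp (GRCm38 chr12:87449401-87449803, plus strand, 403 bases), which 3 of its 4 annotated transcripts splice out and 1 keeps in an exon. Its retention was 25%, 18.18% and 0% in room air libraries 1, 2 and 3, and 0%, 0% and 2.63% in smoke libraries 1, 2 and 3. Of the room air libraries 2 stood above every smoke library and the other at 0%, so the groups overlapped. The means were 14.4% ± 12.9 (SD, n = 3) in room air and 0.877% ± 1.52 (SD, n = 3) after smoke, a difference of -13.5 percentage points. The difference did not pass the test, with a limma adjusted p of 0.524 (p = 0.112, log2 odds of -2.59) and a two-sided exact permutation p of 0.4, where 3 against 3 libraries cannot go below 0.1. Read counts behind these percentages were not used here, so no interval for single libraries is given.

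**Figure D5:**
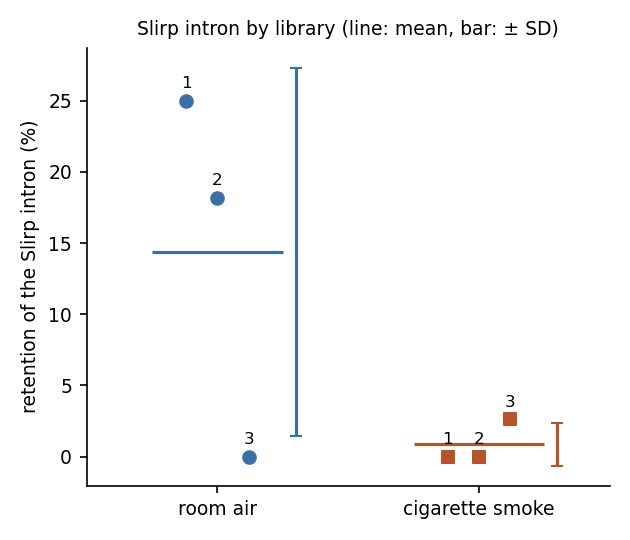
Retention of the Slirp intron in percent in each of 3 room air and 3 smoke libraries (points with replicate numbers), with the mean as a line and a bar of ± SD. Room air libraries lie at 25%, 18.18% and 0%, and smoke libraries at 0%, 0% and 2.63%.

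The other events gave little difference. A cassette exon event of Slirp (chr12:87444027-87449292) stood at 100% in all room air libraries and at 94.74%, 100% and 100% after smoke, with a limma adjusted p of 0.623. An alternative donor of Polg (chr7:79459301-79459512) had values in 2 libraries per group, 100% and 93.33% in room air and 100% in both after smoke, with a limma adjusted p of 0.621.

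The authors' deposited rMATS table of retained introns compared 2 sample sets without saying which is which, so its direction is given by set only. It held 6 introns of the 10 genes, in Slirp, Ssbp1, Polg and Polrmt, and 1 of the 6 had a false discovery rate (FDR) under 0.05, beside 14.5% of all 3887 introns. That intron was the Slirp intron described above, 12.6 percentage points higher in set 1, with an FDR of 0.000365 in the authors' deposited table. It is also the event with the widest difference in the percentages by library, but both tables belong to the same experiment and are not independent readings. Of the 565 introns called in all, 95.04% were higher in set 1, or 13.8% of all introns, so the Slirp intron followed the common direction. The intron of Ssbp1 (chr6:40471460-40472070) was 17.5 percentage points higher in set 1, with an FDR of 0.0736 in the authors' deposited table. The 2 introns of Polg differed by 8.2 and -2.3 percentage points and those of Polrmt by 2.4 and -21.9 in the authors' deposited table, with FDRs from 0.549 to 1.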

How the data were processed

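RNA was measured in 6 libraries, 3 per group. The authors used STAR, SAMtools 1.9, bedtools 2.27.1, DESeq2 and mm10, per the submitters' processing notes, which give no roles. The deposited expression table holds signal values, normalized counts averaged per group by the authors, with log2 fold changes (a MAP estimate, per the file headers), a test statistic (score), SEs and p-values; one of its columns is headed as a mean over 24 samples, 18 of which were not analysed here. The planned count test per library was replaced by the deposited comparison, because the table holds group means. The deposited splicing tables hold percent values per library (JuncBASE) and differences in inclusion as a fraction between 2 unlabelled sets (rMATS), with raw and corrected p-values from the authors. The 6 columns of per-sample rMATS values were not used.

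The members and gene lists were chosen with earlier results of these data known. Named were the 10 members, mtDNA-encoded genes, called genes of each list that averaged 50 normalized counts or more (at most 5 per list and direction), and the 5 genes of a mean of at least 1000 nearest to the rRNAs; all others were chosen after their values were seen. 95% intervals were made from the deposited SEs. The GC and length trend was fitted by weighted natural splines (4 degrees of freedom, patsy 1.0.2) on the longest annotated transcript of each gene. Its p-values were recomputed from the residuals. Splicing percentages p were tested as log2((p + 1)/(100 - p + 1)) with limma 3.58.1 in R 4.3.3, with Benjamini-Hochberg adjustment over 10376 events. Trend removal and the limma test were also run on simulated data. The simulated shifts were larger than those of the 10 genes, so recovery of smaller shifts was not tried. The limma p-values measure the spread between these libraries, while which samples set the spread in the authors' DESeq2 fit is not given in the sources used here. The labels speak of cells from each mouse but do not tie libraries to animals. Positions, lengths and rRNA and tRNA sequences came from GENCODE M21 (GRCm38), promoters from RefSeq (GRCm38.p6). Alternatives were other p-value adjustments, filters, scalings, pseudocounts and left-out libraries.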

Additional observations from a re-analysis of the deposited data

How the results depend on the processing

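The deposited log2 fold changes of the rRNAs stay as they are under another p-value adjustment or filter, and centring on the median of -0.0029 (log2) shifts every gene alike. With the GC and length trend removed the rRNAs went to -1.58 and -1.56, and Polrmt changed sign, to -0.02. Ratios of group means with a pseudocount of 1, or rescaled to equal sums outside mtDNA (a shift of 0.0125), replace the deposited fold change and so moved genes by unequal amounts, such as Tfb1m from -0.27 to -0.21 and -0.20. Over all alternatives the nuclear values ranged from -0.34 to 0.45, and Tfb1m had no value under the minimum mean of 50. The 929 genes called in all became 688 with adjustment over every p-value, 902 above a mean of 50, 926 after centring and 154 after the trend was removed. The rRNA share was 1.19% in room air and 0.380% after smoke without the 10 highest genes outside mtDNA, and 1.17% and 0.372% over protein-coding genes and the rRNAs.

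With the replicate number as a block, 0 splicing events of the 10 genes and 0 of all events passed an adjusted p of 0.05 in limma, with 800 under 0.05 unadjusted, and the Slirp intron had an adjusted p of 0.609. In the labels only the number links a room air library to a smoke library. Deviations of equal numbers correlated at 0.018, -0.040 and -0.089, and 1 of 6 libraries correlated best with its own number. With 3 libraries per group these values cannot show whether equal numbers shared a batch. Events of the 10 genes past the threshold stayed at 0 when each library was left out in turn, and the Slirp intron ranged from -4.20 to -1.64 log2 odds, with adjusted p-values from 0.213 to 0.697. Over all events the count was 23 among those with a value in every library and 1131 without cigarette smoke replicate 3, where many events were left with 1 smoke library, since replicate 1 had no value for 4169 of 10376 events; the lone library was then assumed to vary like the others, and the cause of the rise was not tested. A difference of at least 10 percentage points kept the 1 Slirp intron in rMATS, among 172 of all 3887 introns past both thresholds. Group means without depth per library limit what can be said of expression.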
